A study of Mus musculus with 46 samples.

Results

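The genes described here are 9 members of the transforming growth factor beta (TGF-beta) pathway, taken as a list of gene symbols, with earlier results of these data known: the ligands Tgfb1, Tgfb2 and Tgfb3, the latent TGF-beta binding protein family members Ltbp1 and Ltbp2, the receptors Tgfbr1 and Tgfbr2, the secreted target Tgfbi and the feedback inhibitor Skil. They are 9 of the 37108 genes of the gene table and 9 of the 35976 genes obtained when the transcripts of the iPSC table were summed by symbol, where they cover 34 of 106520 transcripts. All 9 passed the filter on low values (at least 1 FPKM in at least 2 samples) in both tables, as did 16842 genes of the time course.

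TGF-beta ligands are made as latent dimers that stay bound to their own propeptide. Most latent TGF-beta binding proteins tether this complex to the extracellular matrix until integrins, thrombospondin or proteases release the ligand. The active dimer binds the type II receptor, which recruits and phosphorylates the type I receptor, and Smad2 and Smad3 then carry the signal to the nucleus. In fibroblasts the pathway is known for driving matrix and contractile genes, and it is known as a barrier to the loss of mesenchymal identity at the start of reprogramming.

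The samples follow mouse embryonic fibroblasts (MEF) towards induced pluripotent stem cells (iPSC). Per the study's methods, the MEF came from embryos that carried an Oct4-GFP reporter (OG2), and the end of retroviral infection with pMXs vectors was called D0, so D0 cells already held the factors and MEF did not. Every time-course sample received Oct4 and a second factor, native Nanog (Nanog WT) or NanogN70 (Nanog BiD), a fusion of Nanog with the domain of SS18 that binds BRG1, the motor of the BAF remodelling complex. The 31 time-course libraries run from D0 over D1, D3, D5 and D7 to D8, D10 and D12, with 2 replicates for each combination and day, except 1 for Nanog BiD at D8. Per the study's methods, fibroblasts were kept in DMEM with serum. The medium was changed to iCD3 at D0 and to N2B27 + 2iL at about D7, which both combinations shared. Whether D0 libraries were taken before the change to iCD3 is not stated. Changes from D0 to later days may thus span that switch of medium, whose part in them was not tested. Whether iCD3 holds an agent that acts on TGF-beta is not stated in the sources used here. The other libraries are 2 of MEF, 1 of OG2 mouse embryonic stem cells (mES) and 12 of established iPSC, with 3 samples each of Nanog BiD iPSC1 and iPSC2, 4 of Nanog WT iPSC1 and 2 of Nanog WT iPSC2. The labels do not say what iPSC1 and iPSC2 stand for, and in both combinations the column headers mark every iPSC1 sample p5 or p6 and every iPSC2 sample p2, so whatever these tags stand for cannot be told apart from iPSC1 against iPSC2. The labels do not say whether replicates were separate cultures, so p-values measure only the spread between these samples, which may be technical.

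Values are FPKM, fragments scaled by gene length and by the fragments mapped in the library, so levels can be set side by side between genes. The libraries summed to 370030 to 464974 FPKM in the gene table. Relative depth, read from the step that 1 read makes in low values, was 0.813 to 1.10 in the Nanog BiD libraries, 0.875 to 1.06 for Nanog WT until D7 and 1.86 to 3.19 for Nanog WT afterwards, so from D8 on depth and combination cannot be told apart. The summed level of 6 fibroblast markers was 5579 to 6548 FPKM in MEF and 11.5 FPKM in mES. At D0 it was 1732 and 1830 FPKM with Nanog BiD against 1844 and 2178 FPKM, and at D1 939 and 1098 against 1392 and 1485 FPKM. It was 225 to 374 FPKM with Nanog BiD and 497 to 698 FPKM with Nanog WT over D3 to D7, and 241 to 443 against 2245 to 2838 FPKM over D10 and D12, and no marker was at 0 in any MEF or time-course library, whereas 1 was in mES. The summed level of 6 pluripotency markers was 294 to 1876 FPKM with Nanog BiD and 1.09 to 184 FPKM with Nanog WT over D8 to D12. The sum of 4 smooth muscle markers was 55.0 and 47.3 FPKM with Nanog BiD and 127 and 70.9 FPKM with Nanog WT at D0, and 7.77 to 21.0 against 44.3 to 93.8 FPKM over D3 to D7. The part of these marker levels in the members' changes was not tested. These are whole cultures, in which fewer cells of a type and less RNA per cell cannot be told apart.

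The first question was how each member behaved from the fibroblast to the end of the time course. The starting MEF were rich in the pathway's ligands and matrix partners. On the mean of both libraries Tgfb3 was the member with the highest level, at 72.3 and 111 FPKM, followed by Ltbp1 at 50.5 and 59.4 FPKM, and Tgfbr1 had the lowest, at 13.2 and 10.1 FPKM. In mES Skil led at 16.3 FPKM with Tgfbr1 next at 6.65 FPKM, and Tgfb2, Tgfb3 and Ltbp2 were all under 0.1 FPKM. A single mES library gives no spread for this order, and in MEF Tgfbi at 72.7 and 24.3 FPKM and Tgfbr2 at 61.7 and 34.6 FPKM were both above Ltbp1 in replicate 1 and below it in replicate 2, so these neighbours were not separated.

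**Figure D1:**
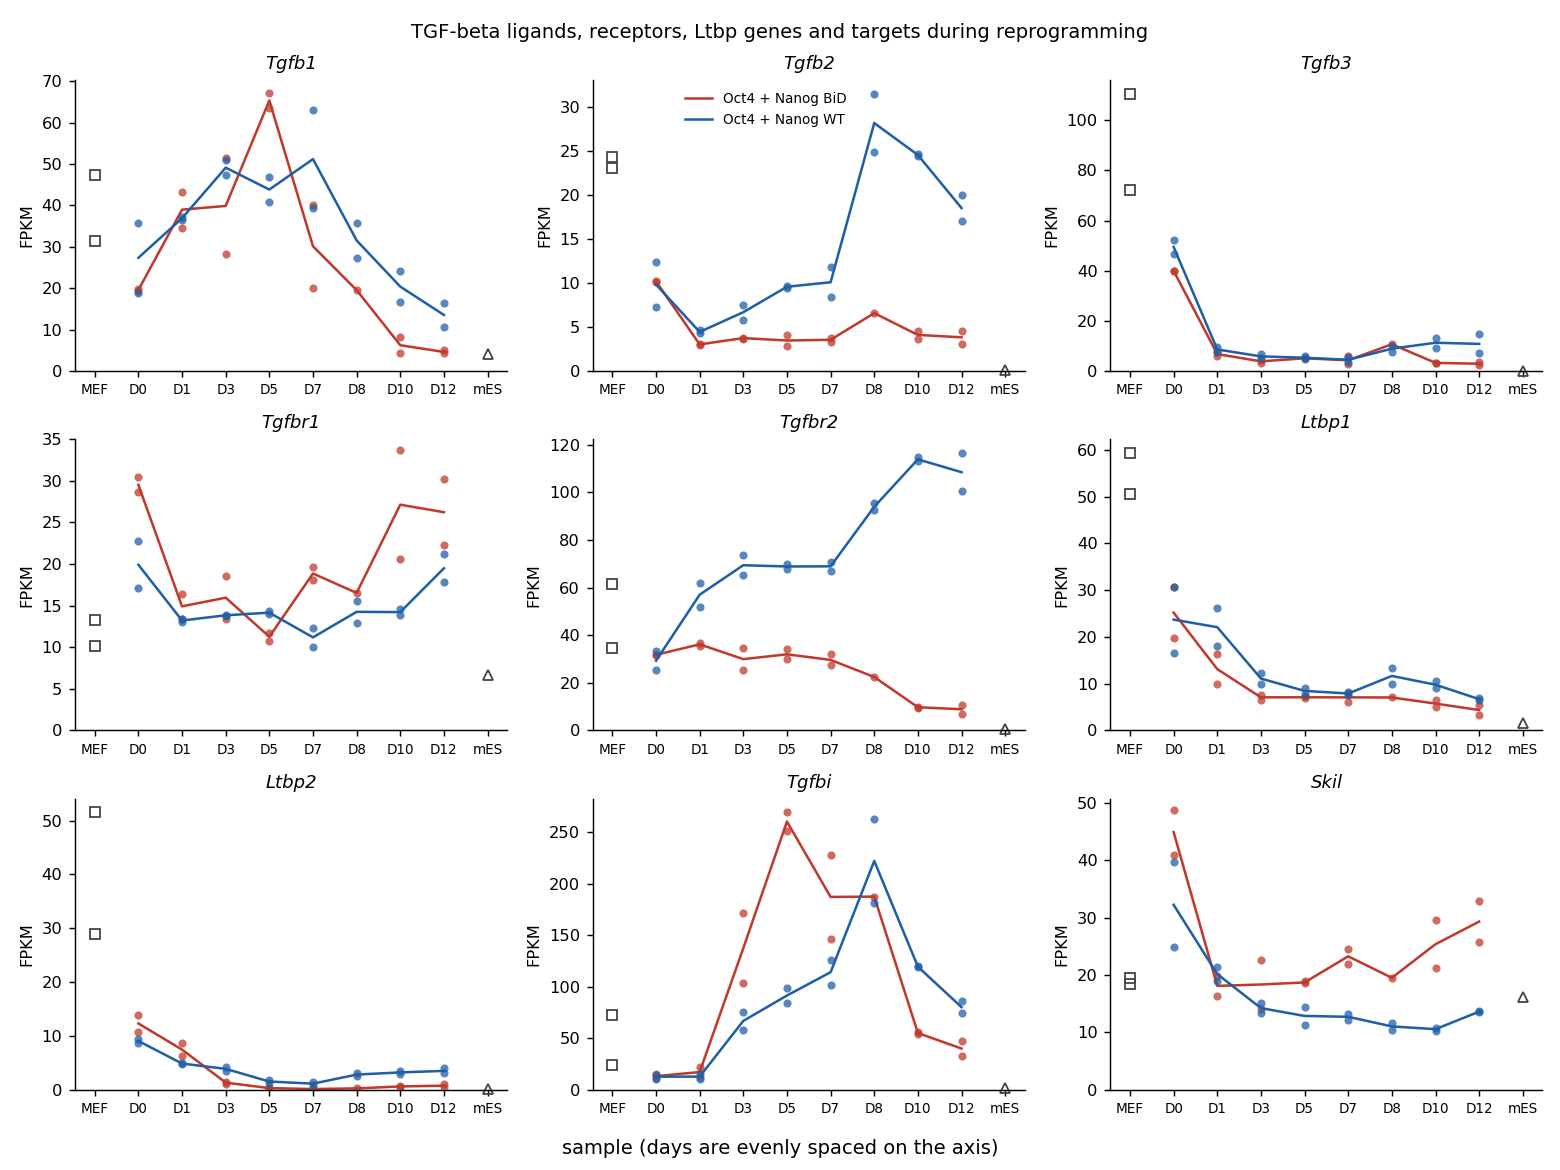
FPKM of each of the 9 genes in every library of the gene table, with points for libraries, lines through the mean of each day (red Nanog BiD, blue Nanog WT), squares for MEF and triangles for mES; the vertical scale differs between panels. Tgfbr2 and Tgfb2 do not overlap between the combinations from D1 on, Tgfb3 and Ltbp2 are far below MEF in both, and Tgfbi peaks at 252 and 269 FPKM at D5 with Nanog BiD and at 263 and 181 FPKM at D8 with Nanog WT.

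Tgfb3 (chr12:86056745-86079041, minus strand; all gene positions are GRCm38 from GENCODE M21), the ligand that fibroblasts made most of, was at 39.9 and 40.0 FPKM at D0 with Nanog BiD and at 52.4 and 46.6 FPKM with Nanog WT. One day later it stood at 5.94 and 7.47 FPKM with Nanog BiD and at 7.38 and 9.71 FPKM with Nanog WT. The D0 and D1 values did not overlap in either combination, while those of the combinations overlapped at D1. From D0 to D7 Tgfb3 fell in both combinations, with log2 differences of -3.04 for Nanog BiD (SE 0.31, adjusted p = 1.55e-07, limma) and -3.24 for Nanog WT (SE 0.31, adjusted p = 6.09e-08). Log2 differences here and below were taken on log2(FPKM + 1), where changes of low genes come out too small, and adjusted p-values are two-sided, from limma with Benjamini-Hochberg adjustment over all genes tested. To be called, a gene needed an adjusted p below 0.05 and a log2 difference of 1 or more in size. Exons of Tgfb3 overlap Gm37804 and Gm48008 on the opposite strand, and strand use in counting is not stated, so its level is uncertain by what they contribute.

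Tgfb1 (chr7:25687002-25705077, plus strand), the most widely expressed ligand, was at 19.8 and 19.3 FPKM at D0 with Nanog BiD and at 35.8 and 18.9 FPKM with Nanog WT. At D5 it reached 67.3 and 63.6 FPKM with Nanog BiD and 40.8 and 46.9 FPKM with Nanog WT. At D12 it was back at 4.94 and 4.21 FPKM with Nanog BiD and at 16.4 and 10.6 FPKM with Nanog WT, against 4.12 FPKM in mES. The 2 Nanog BiD libraries of D12 were therefore near the mES level and under both Nanog WT libraries. Between D7 and D12 Tgfb1 fell in both, with log2 differences of -2.41 for Nanog BiD (SE 0.35, adjusted p = 1.34e-05) and -1.84 for Nanog WT (SE 0.35, adjusted p = 0.000476), and the difference between these falls did not pass the test (log2 difference -0.57, SE 0.49, adjusted p = 0.473). Replicates were wide apart at D7, with 40.1 and 20.1 FPKM with Nanog BiD and 63.0 and 39.4 FPKM with Nanog WT.

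Tgfb2 (chr1:186622792-186705989, minus strand), a ligand known for binding its type II receptor well only with the help of betaglycan, took a different course in each combination. It was at 10.1 and 10.2 FPKM at D0 with Nanog BiD and at 7.21 and 12.4 FPKM with Nanog WT, so the groups overlapped. With Nanog BiD it then stayed between 2.79 and 6.56 FPKM from D1 to D12. With Nanog WT it was at 4.59 and 4.26 FPKM at D1, 9.47 and 9.64 FPKM at D5, and 24.8 and 31.5 FPKM at D8, above the MEF values of 24.3 and 23.0 FPKM. Tgfb2 fell between D0 and D7 with Nanog BiD (log2 difference -1.30, SE 0.22, adjusted p = 6.67e-05), and with Nanog WT the difference was 0.06 (SE 0.22, adjusted p = 0.872). The change itself differed between the combinations by -1.36 (SE 0.31, adjusted p = 0.00436), a call that a fit to the compared groups alone did not make (adjusted p = 0.0965). Exons of Tgfb2 overlap Gm29491 on the opposite strand, so its level carries the same limit as Tgfb3.

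The mixture of ligand transcripts changed with these courses. In MEF the 3 ligands together stood at a mean of 155 FPKM, of which Tgfb3 made up 59.2%. At D5 with Nanog BiD the sum was 73.9 FPKM with 88.5% from Tgfb1, and with Nanog WT it was 58.7 FPKM with 74.8% from Tgfb1. At D12 the sum was 11.2 FPKM with Nanog BiD, and Tgfb1, Tgfb2 and Tgfb3 held 40.7%, 34.0% and 25.3% of it. With Nanog WT the D12 sum was 42.8 FPKM, and Tgfb2 was the largest share at 43.2%. In mES 96.3% of a sum of 4.27 FPKM was Tgfb1. These sums and shares are means over replicates and were not tested.

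**Figure D2:**
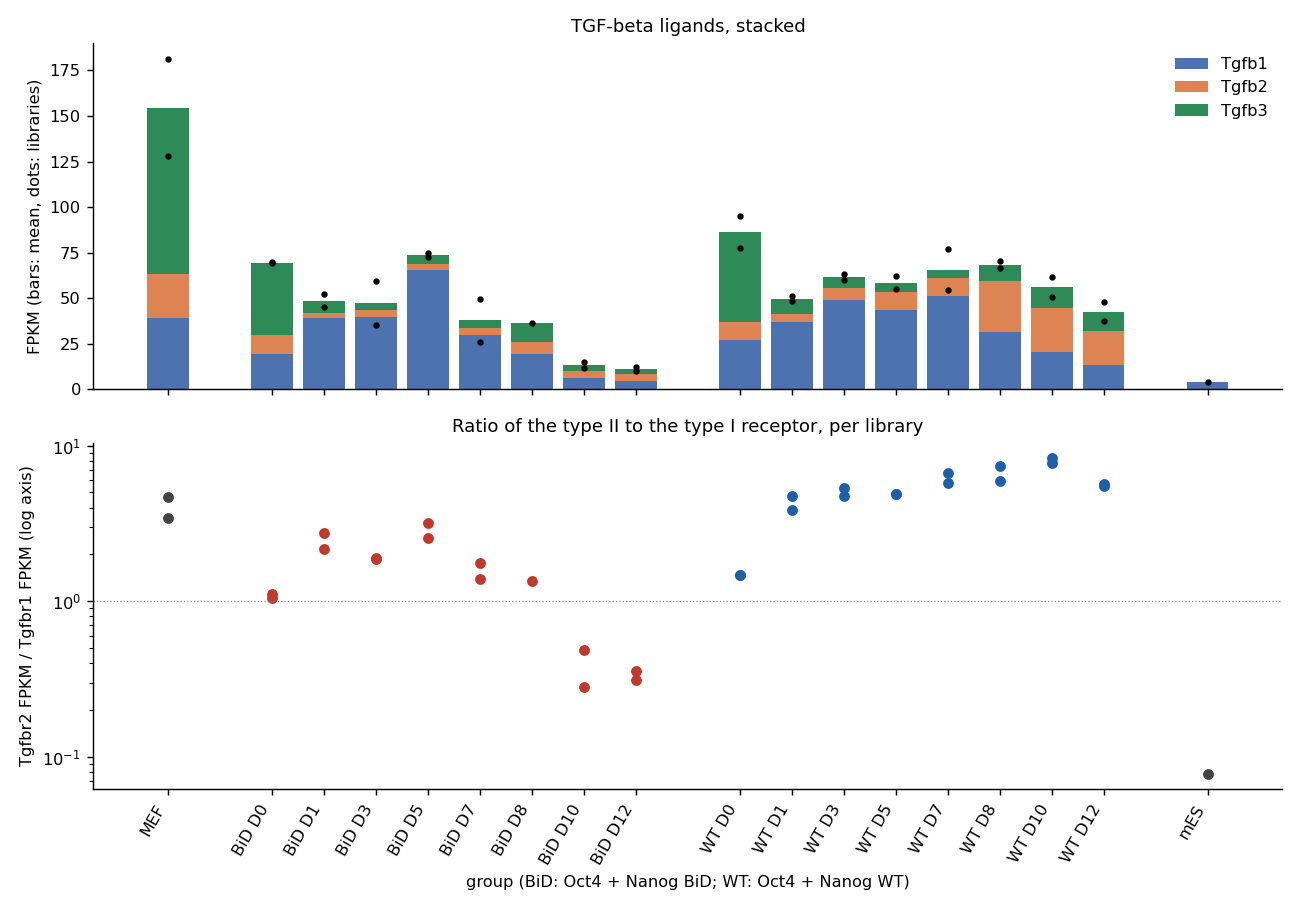
Upper panel: mean FPKM of Tgfb1, Tgfb2 and Tgfb3 stacked per group, with a dot for the summed FPKM of each library; lower panel: Tgfbr2 FPKM divided by Tgfbr1 FPKM in each library on a log axis. The MEF and D0 bars are mostly Tgfb3, the D1 to D7 bars mostly Tgfb1, and the receptor ratio is under 1 in the 4 Nanog BiD libraries of D10 and D12 and in mES.

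Both Ltbp genes stood at lower levels than in MEF from D0 on. Ltbp1 (chr17:75005568-75392512, plus strand), which binds the latent complex covalently, was at 19.7 and 30.7 FPKM at D0 with Nanog BiD and at 16.7 and 30.7 FPKM with Nanog WT, and at D7 at 7.98 and 6.12 FPKM and at 8.10 and 7.65 FPKM. The combinations overlapped on both days. From D0 to D7 Ltbp1 fell in both, with log2 differences of -1.68 for Nanog BiD (SE 0.28, adjusted p = 7.08e-05) and -1.42 for Nanog WT (SE 0.28, adjusted p = 0.000434). The latter call was lost without replicate 2 of Nanog WT at D0 (-0.99) and in a fit to the compared groups alone (adjusted p = 0.0839). Ltbp2 (chr12:84783212-84876532, minus strand), a matrix protein of the same family that is not known to bind latent TGF-beta, was at 13.8 and 10.8 FPKM at D0 with Nanog BiD and at 9.36 and 8.76 FPKM with Nanog WT. At D7 it was at 0.247 and 0.0246 FPKM with Nanog BiD and at 1.35 and 0.911 FPKM with Nanog WT. Both Nanog BiD values of D7 were below both Nanog WT values, which was the reverse of D0. Ltbp2 fell by log2 differences of -3.55 for Nanog BiD (SE 0.20, adjusted p = 6.05e-11) and -2.24 for Nanog WT (SE 0.20, adjusted p = 2.84e-08), and the change differed between them by -1.30 (SE 0.29, adjusted p = 0.00365). Exons of Ltbp2 overlap D030025P21Rik on the opposite strand, whose values followed it closely, so reads of the pair may not be separate.

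Both receptors were expressed throughout, and between the combinations the type II receptor was called from D3 on and the type I receptor on no day. Tgfbr2 (chr9:116084293-116175360, minus strand), which binds the ligand, was at 31.9 and 31.7 FPKM at D0 with Nanog BiD and at 25.3 and 33.2 FPKM with Nanog WT. At D3 it was at 25.3 and 34.6 FPKM with Nanog BiD and at 65.3 and 73.6 FPKM with Nanog WT. At D12 it was at 6.90 and 10.8 FPKM with Nanog BiD and at 100.5 and 117 FPKM with Nanog WT. The combinations overlapped at D0 and at no later day, and all libraries of Nanog WT from D3 on lay above both MEF libraries, at 61.7 and 34.6 FPKM. From D0 to D7 Nanog WT cells gained Tgfbr2 (a rise of 1.22 on the log2 scale, SE 0.17, adjusted p = 1.18e-05), whereas with Nanog BiD the difference was -0.10 (SE 0.17, adjusted p = 0.674). It then fell by 1.66 from D7 to D12 with Nanog BiD (SE 0.17, adjusted p = 2.20e-07), against a difference of 0.64 with Nanog WT that was under the fold limit (SE 0.17, adjusted p = 0.00927). Both changes differed between the combinations, by -1.32 from D0 to D7 (SE 0.25, adjusted p = 0.000948) and by -2.30 from D7 to D12 (SE 0.25, adjusted p = 1.70e-06).

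Tgfbr1 (chr4:47353222-47414931, plus strand), the type I receptor kinase, was at 30.4 and 28.6 FPKM at D0 with Nanog BiD and at 17.1 and 22.7 FPKM with Nanog WT. It was at 11.7 and 10.8 FPKM at D5 with Nanog BiD against 14.3 and 14.0 FPKM, and at 22.3 and 30.2 FPKM at D12 against 17.8 and 21.1 FPKM. The Nanog BiD libraries were the higher ones at D0 and D12 and the lower ones at D5. Tgfbr1 was called in no comparison. Between the combinations, the differences of 0.71 at D7 (SE 0.20, adjusted p = 0.0121) and 0.85 at D10 (SE 0.20, adjusted p = 0.00145) passed the p limit without reaching the fold limit. The same was true of D0 to D7 with Nanog BiD (-0.62, adjusted p = 0.0177) and Nanog WT (-0.77, adjusted p = 0.00468), and of D7 to D12 with Nanog WT (0.75, adjusted p = 0.00875). Set against it, Tgfbr2 was 4.12 times as abundant as Tgfbr1 in MEF on group means. The ratio at D12 was 0.338 for Nanog BiD against 5.57 for Nanog WT, and mES had 0.0779.

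The promoters of both receptors are shown because Tgfbr2 was called between the combinations and Tgfbr1, its partner in the receptor complex, was not. They are the 250 bases before the start of transcription, from RefSeq on GRCm38.p6, read 5′ to 3′ on the strand of the gene. Capitals mark CAGAC, or GTCTG where it lies on the other strand, the core of the Smad-binding element, which was searched on both strands.
Tgfbr1 promoter (chr4:47352972-47353221, plus strand): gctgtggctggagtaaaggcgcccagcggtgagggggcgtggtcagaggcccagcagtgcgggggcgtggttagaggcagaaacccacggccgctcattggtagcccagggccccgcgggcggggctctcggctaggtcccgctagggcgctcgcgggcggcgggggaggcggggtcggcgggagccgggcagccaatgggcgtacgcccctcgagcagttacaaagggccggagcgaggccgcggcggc
Tgfbr2 promoter (chr9:116175364-116175613, minus strand): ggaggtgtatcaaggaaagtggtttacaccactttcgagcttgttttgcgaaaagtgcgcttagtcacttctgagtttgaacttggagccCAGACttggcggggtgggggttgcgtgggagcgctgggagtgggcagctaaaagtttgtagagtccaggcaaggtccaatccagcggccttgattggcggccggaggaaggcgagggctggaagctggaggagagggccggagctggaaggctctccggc
The Tgfbr2 window holds 1 match and this Tgfbr1 window 0. A second RefSeq start of Tgfbr1, within the gene, has the window chr4:47385966-47386215, which holds 1 match, so windows of both receptors hold one. Windows of the same length upstream of 32817 mouse promoters held a match in 42.2% of cases, and a match is a run of letters and not a bound site.

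The remaining members are known targets of the pathway, whose activity was not measured here. Tgfbi (chr13:56609523-56639562, plus strand), a secreted matrix protein named for its induction by TGF-beta, was at 15.4 and 11.0 FPKM at D0 with Nanog BiD and at 14.5 and 10.8 FPKM with Nanog WT. At D3 it was at 172 and 103 FPKM with Nanog BiD and at 75.3 and 58.5 FPKM with Nanog WT, and at D5 at 252 and 269 FPKM against 84.7 and 98.4 FPKM. The combinations overlapped at D0 and D1, and the Nanog BiD libraries were the higher ones at D3, D5 and D7. From D0 to D7 Tgfbi rose by 3.71 on the log2 scale with Nanog BiD (SE 0.29, adjusted p = 3.60e-09) and by 3.08 with Nanog WT (SE 0.29, adjusted p = 4.38e-08). It was the only member called higher in both. By D12 it was at 33.1 and 46.9 FPKM with Nanog BiD and at 86.2 and 74.3 FPKM with Nanog WT, so the order of the combinations was turned round. Its change from D7 to D12 differed between the combinations by -1.68 (SE 0.40, adjusted p = 0.00490).

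Skil (chr3:31095058-31122577, plus strand), which encodes SnoN, a repressor of Smad activity that is itself a known TGF-beta target, was at 48.8 and 41.0 FPKM at D0 with Nanog BiD and at 24.8 and 39.7 FPKM with Nanog WT, against 18.4 and 19.6 FPKM in MEF. At D1 it was at 16.4 and 19.8 FPKM and at 18.9 and 21.4 FPKM. All 4 libraries of D0 were thus above MEF, and at D1 the combinations overlapped. From D0 to D7 Skil fell by 1.24 with Nanog WT (SE 0.22, adjusted p = 0.000123), and with Nanog BiD the difference was -0.92 and under the fold limit (SE 0.22, adjusted p = 0.00194). The fall with Nanog WT was not called without replicate 2 of D0 (-0.91, adjusted p = 0.00449) or in a fit to the compared groups alone (adjusted p = 0.0714).

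Counted over all 9 genes, D0 to D7 gave 1 higher and 4 lower with Nanog BiD, where 12.7% of all genes tested were called higher and 6.15% lower, and 2 higher and 4 lower with Nanog WT, where 12.0% were called higher and 5.69% lower. The median log2 difference of the members was -0.92 and -0.77, against 0.24 and 0.12 over all genes tested. D7 to D12 gave 3 lower with Nanog BiD (Tgfb1, Tgfbr2 and Tgfbi), with 11.6% of all genes called higher and 8.37% lower. With Nanog WT it gave 1 lower (Tgfb1) and 2 higher (Tgfb3 and Ltbp2), with 6.66% of all genes called higher and 4.62% lower. With Nanog WT the calls of Tgfb3 and Ltbp2 were lost without replicate 1 of D12 and without replicate 2 of D7. Tgfb3 was also not called in the fit to the compared groups alone, nor Ltbp2 under quantile normalization. The changes of 3 members differed between the combinations from D0 to D7 (Tgfb2, Tgfbr2 and Ltbp2, with backgrounds of 5.20% higher and 4.88% lower) and of 3 from D7 to D12 (Tgfb3, Tgfbr2 and Tgfbi, with backgrounds of 6.78% higher and 7.33% lower). All 6 were lower with Nanog BiD.

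The second question was on which day the fusion and native Nanog parted in this pathway. At D0 and D1, 0 of the 9 members were called between the combinations by limma, with backgrounds of 0.422% higher and 0.338% lower at D0 and of 0.368% and 0.962% at D1. At an unadjusted p under 0.05 the members were Tgfbr1 (0.56, SE 0.20) and Skil (0.50, SE 0.22) at D0, and Tgfbr2 (-0.64, SE 0.17), Ltbp1 (-0.73, SE 0.28) and Ltbp2 (0.51, SE 0.20) at D1. Of all genes tested, 15.8% at D0 and 13.5% at D1 were under that unadjusted p. At D3, 2 members were called, both lower with Nanog BiD, with backgrounds of 1.25% higher and 2.45% lower. They were Tgfbr2 (log2 difference -1.20, SE 0.17, adjusted p = 0.000103) and Ltbp2 (-1.07, SE 0.20, adjusted p = 0.00148). Neither was called without replicate 1 of Nanog BiD at D3, Ltbp2 was not called without replicate 2 of Nanog WT, and the fit to the compared groups alone called 0 of all genes on that day. Also at D3, Tgfbi was higher with Nanog BiD (0.99, SE 0.29, adjusted p = 0.0312) and Tgfb2 lower (-0.69, SE 0.22, adjusted p = 0.0488). Both passed the p limit without reaching the fold limit, and the groups of each did not overlap.

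At D5 the count was 3, of which 1 was higher and 2 were lower, with backgrounds of 3.20% and 3.28%. Tgfb2 was at 2.79 and 4.11 FPKM with Nanog BiD against 9.47 and 9.64 FPKM (log2 difference -1.26, SE 0.22, adjusted p = 0.000344). Tgfbr2 was at 29.8 and 34.1 against 69.8 and 67.9 FPKM (-1.09, SE 0.17, adjusted p = 0.000177). Tgfbi was the member higher with Nanog BiD (1.50, SE 0.29, adjusted p = 0.000935). The groups of each of these genes did not overlap, and the call of Tgfbr2 was lost without replicate 1 of Nanog BiD (-0.99). Ltbp2 passed the p limit without reaching the fold limit at D5 (-0.94, SE 0.20, adjusted p = 0.00260). The same was true at D7 of Ltbp2 (-0.91, SE 0.20, adjusted p = 0.00203) and Skil (0.82, SE 0.22, adjusted p = 0.00749). At D7 Tgfb2 (-1.27, SE 0.22, adjusted p = 0.000174) and Tgfbr2 (-1.20, SE 0.17, adjusted p = 3.50e-05) were called, both lower, with backgrounds of 5.79% higher and 4.65% lower. Without replicate 1 of Nanog BiD at D7 the count was 4.

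At D10 and D12 the same 7 genes were called in the same directions. Tgfb1, Tgfb2, Tgfb3, Tgfbr2, Ltbp2 and Tgfbi were lower with Nanog BiD, where 12.3% and 9.97% of all genes were called lower, and Skil was higher, where 15.4% and 13.5% were. The largest difference was that of Tgfbr2, at -3.43 at D10 (SE 0.17, adjusted p = 1.93e-11) and -3.50 at D12 (SE 0.17, adjusted p = 1.29e-11). Tgfb2 followed with 3.61 and 4.56 FPKM against 24.4 and 24.6 FPKM at D10 (-2.33, SE 0.22, adjusted p = 3.78e-08). Tgfb3, which had not differed by more than 0.51 on any earlier day with a test, was at 3.30 and 3.08 against 13.3 and 9.19 FPKM at D10 (-1.52, SE 0.31, adjusted p = 0.000322).

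Skil was the called member that was higher with Nanog BiD. It was at 29.6 and 21.2 FPKM with Nanog BiD and at 10.8 and 10.3 FPKM with Nanog WT at D10 (1.17, SE 0.22, adjusted p = 0.000137), and at 32.9 and 25.8 FPKM against 13.5 and 13.7 FPKM at D12 (1.04, SE 0.22, adjusted p = 0.000520). The groups did not overlap on either day. The call was lost without replicate 1 of Nanog BiD at D10 (0.94) and at D12 (0.87). Of the other calls at D12, Tgfb1 was lost without replicate 1 of Nanog WT (-1.06, adjusted p = 0.0526), and Tgfbi was lost without replicate 1 of either combination (-0.76 to -0.90). The median of the 9 differences was -1.39 at D10 and -1.35 at D12, against 0.10 and 0.17 over all genes tested. Beside these values stand the deeper Nanog WT libraries and their higher fibroblast marker sums, whose part in the differences was not tested.

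**Figure D3:**
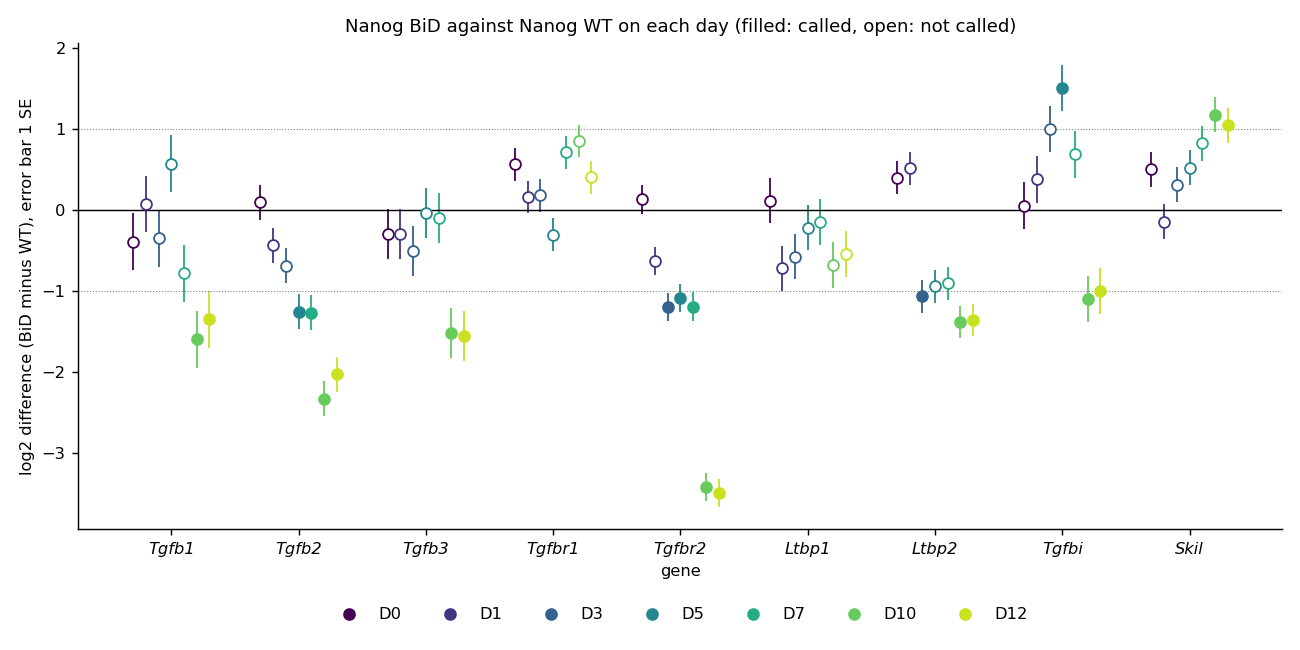
Log2 difference of FPKM + 1 between Nanog BiD and Nanog WT for each gene on the 7 days with 2 replicates in both combinations, with error bars of 1 SE; filled points were called and open points were not, and dotted lines mark a difference of 1 in size. Tgfbr2 steps down from 0.13 at D0 to -3.50 at D12, Skil is above 1 at D10 and D12, and Tgfbr1 and Ltbp1 have no filled point.

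D8 came just after the change of medium and had 1 Nanog BiD library, so its values are a description. Tgfb3 was at 10.6 FPKM in that library and at 10.1 and 7.58 FPKM with Nanog WT, and Tgfbi was at 188 FPKM against 263 and 181 FPKM. Tgfbr2 was at 22.4 FPKM against 95.4 and 92.6 FPKM, and Tgfb2 at 6.56 FPKM against 24.8 and 31.5 FPKM. The Nanog BiD library was thus within or next to the Nanog WT range for Tgfb3 and Tgfbi and far under it for Tgfbr2 and Tgfb2. The fibroblast marker sum at D8 was 685 FPKM in the Nanog BiD library and 1605 and 1589 FPKM with Nanog WT. Its part in these values was not tested.

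The rest of the pathway was followed in 4 lists: genes of latency and activation, coreceptors and related receptors, Smads and their partners, and known induced targets. Of their 39 genes 37 were tested, with Ccn2 and Ctgf, which are names of 1 gene and rows that differ by at most 0.41 FPKM, counted once. Lrrc32, which encodes GARP, the cell-surface anchor of latent TGF-beta, was the single list gene called at D0 (log2 difference -1.72, SE 0.20, adjusted p = 0.000153). It was also lower with Nanog BiD at every later day with a test, joined at D1 by Snai2, a repressor of epithelial genes (-1.48, SE 0.27, adjusted p = 0.00395), and stood at 8.16 against 67.9 FPKM on group means at D3 (-2.92, SE 0.20, adjusted p = 1.64e-08). Thbs1, which encodes thrombospondin-1, an activator of the latent complex, was at 89.2 against 308 FPKM on group means at D3 (-1.85, SE 0.29, adjusted p = 0.000227). The other D3 calls were Eng, the coreceptor endoglin (-1.21), the targets Ccn2 (-3.05) and Fn1 (-1.02), and Lox, a collagen crosslinking enzyme and the only list gene higher with Nanog BiD (1.37). The lists thus held 1 higher and 5 lower genes of 37 at D3, against 1 and 4 on D5 and 2 and 4 on D7, with the backgrounds given above of 1.25% and 2.45%, 3.20% and 3.28%, and 5.79% and 4.65%. The fit to the compared groups alone called 0 of all genes at D0, D1 and D3, so the list calls of those days were lost under it. Snai1, a relative of Snai2, was the second one higher at D7 (1.13, SE 0.30, adjusted p = 0.00729), beside Lox (1.11).

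At D10 the lists held 3 higher and 18 lower genes of 37, with backgrounds of 15.4% and 12.3%, and at D12 2 higher and 15 lower, with backgrounds of 13.5% and 9.97%. Among the 12 induced targets 10 were lower at D10 and 9 at D12, with medians of -2.16 and -2.17. The most different were Lox, at 23.7 against 310 FPKM on group means at D10 (-3.66, SE 0.23, adjusted p = 2.85e-10), and Tagln at D10 (-3.19) or Postn at D12 (-3.32). Several of these targets, Col1a1 among them, are also fibroblast genes, and Col1a1 is in the fibroblast marker list. Of the coreceptors, Tgfbr3 (betaglycan) was at 2.98 against 33.6 FPKM at D10 (-3.12, SE 0.18, adjusted p = 7.58e-11), and Acvr1b, a type I receptor for activin and Nodal, was higher with Nanog BiD (1.08). Of the 11 Smads and partners 2 were called at D10, Pmepa1, an inhibitor of Smad activation and a target of the pathway (-2.13), and Tgif1, a Smad corepressor (1.32). The Smad genes themselves, Smad2, Smad3, Smad4, Smad6 and Smad7, were not called between the combinations on any day with a test. The change of Smad6 over time did differ between the combinations. This difference was 1.01 from D0 to D7 (SE 0.28, adjusted p = 0.0176) and -1.24 from D7 to D12 (SE 0.28, adjusted p = 0.00288).

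From D0 to D7, while Tgfbi rose, 7 of the 12 targets fell with Nanog BiD and 7 with Nanog WT, where 6.15% and 5.69% of all genes were called lower. Over the same interval the fibroblast marker sum went from 1732 and 1830 FPKM to 225 and 374 FPKM with Nanog BiD and from 1844 and 2178 FPKM to 513 and 582 FPKM with Nanog WT, and its part in these changes and in those of the members was not tested. The smooth muscle sum was 18.8 and 8.82 FPKM at D7 in Nanog BiD cultures, below its D0 values, while in Nanog WT cultures its D7 values of 93.8 and 61.9 FPKM overlapped those of D0. Among the targets that fell were Tagln, at 508 and 6.59 FPKM on group means with Nanog BiD (-6.11, SE 0.40, adjusted p = 3.71e-10), and Acta2, smooth muscle actin, at 1088 and 17.6 FPKM with Nanog WT (-5.86, SE 0.32, adjusted p = 3.21e-11). None of the 12 rose with Nanog BiD, and 1 rose with Nanog WT (Postn, 1.08, named after its value was seen). Of all genes tested, 12.7% and 12.0% were called higher there. Smad7, the inhibitory Smad that the pathway induces, fell with log2 differences of -1.90 for Nanog BiD (SE 0.21, adjusted p = 3.55e-07) and -1.91 for Nanog WT (SE 0.21, adjusted p = 3.29e-07). From D7 to D12, 6 targets rose and 1 fell with Nanog WT, where 6.66% of all genes were called higher and 4.62% lower. With Nanog BiD 1 rose and 5 fell, where 11.6% of all genes were called higher and 8.37% lower. The change of 10 of the 12 differed between the combinations, each lower with Nanog BiD, with Lox at -5.06 (SE 0.33, adjusted p = 4.00e-09). For this difference 6.78% of all genes were called higher and 7.33% lower.

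The likeness of each member to other genes was described over the 31 time-course samples by Pearson's r of log2(FPKM + 1), with no test, since the samples share days and combinations. Tgfbr2 was most like Wnt5a (r = 0.965), Atrnl1 (0.959) and Pde4b (0.956). Tgfb1 was most like Shc1 (0.963), Tgfb2 like Smoc2 (0.929), Tgfb3 like Actn4 (0.959) and Tgfbi like Eef2k (0.967). Skil was most like Adam19 (0.937) and Ltbp1 like Akap2 (0.916). For Ltbp2 the leading gene was D030025P21Rik (0.965), the gene on its opposite strand, followed by Msrb3 (0.930). No member was among the 3 genes most like another.

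The third question was where the members stood in established iPSC, in the table of transcripts. Of the 9 genes 8 were lower in iPSC than in MEF, where 21.9% of all 13312 genes tested were called higher and 18.8% lower. Tgfb3 was at 64.2 and 100.5 FPKM in MEF, and in the 12 iPSC samples its lowest value was listed at 0, the median was 0.141 and the highest was 18.2 FPKM (log2 difference -5.55, SE 0.79, adjusted p = 3.86e-05). Ltbp1 was at 67.2 and 83.7 FPKM in MEF and at 0.583, 1.30 and 5.08 FPKM, the lowest, median and highest, in iPSC (-5.04, SE 0.27, adjusted p = 9.88e-09). Tgfbr2 was at 51.9 and 29.7 FPKM in MEF and at 0.436, 0.721 and 7.35 FPKM in iPSC (-4.26, SE 0.47, adjusted p = 4.69e-06). No iPSC sample reached the MEF values of these genes.

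The smallest differences were those of the type I receptor and the inhibitor. Tgfbr1 was at 5.42, 8.08 and 10.3 FPKM in iPSC, which overlapped MEF at 11.6 and 9.05 FPKM, and its difference of -0.33 was not called (SE 0.18, adjusted p = 0.112). Skil was at 5.78, 6.45 and 11.4 FPKM in iPSC against 15.3 and 17.9 FPKM in MEF, a smaller difference of -1.18 (SE 0.19, adjusted p = 0.000108), and at 13.3 FPKM in mES. In all 12 iPSC samples and in mES Tgfbr1 was above Tgfbr2, and in both MEF libraries it was below. The other called members were Tgfb1 (-3.55), Tgfb2 (-3.52), Ltbp2 (-4.53) and Tgfbi (-4.05). All 12 induced targets were lower in iPSC than in MEF. Of the 11 Smads and partners 4 were lower and 2 were higher, Smad7 (1.34) and Tgif1 (1.31), named after their values were seen, where 21.9% of all genes were called higher and 18.8% lower.

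Sample 9 of Nanog BiD iPSC1 stood apart from the other 11 iPSC samples. It held 17.3 FPKM of Tgfb2, where the others reached at most 5.27, 18.2 FPKM of Tgfb3 (others at most 5.32), 26.5 FPKM of Ltbp2 (others at most 8.93) and 7.35 FPKM of Tgfbr2 (others at most 2.45). Its 6 fibroblast markers summed to 1327 FPKM, against 2.45 to 417 FPKM in the other iPSC samples and 10.5 FPKM in mES, and its 6 pluripotency markers to 1647 FPKM against 2406 to 4781. The next highest fibroblast sum, 417 FPKM, was that of sample 3 of Nanog WT iPSC1, which also held the next highest Tgfb2, Tgfb3, Tgfbr2, Ltbp2 and Tgfbi. The part of these marker levels in the members' values was not tested. Without sample 9 the 8 members remained called against MEF, with Tgfbr2 at -4.44 and Tgfb3 at -5.83.

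**Figure D4:**
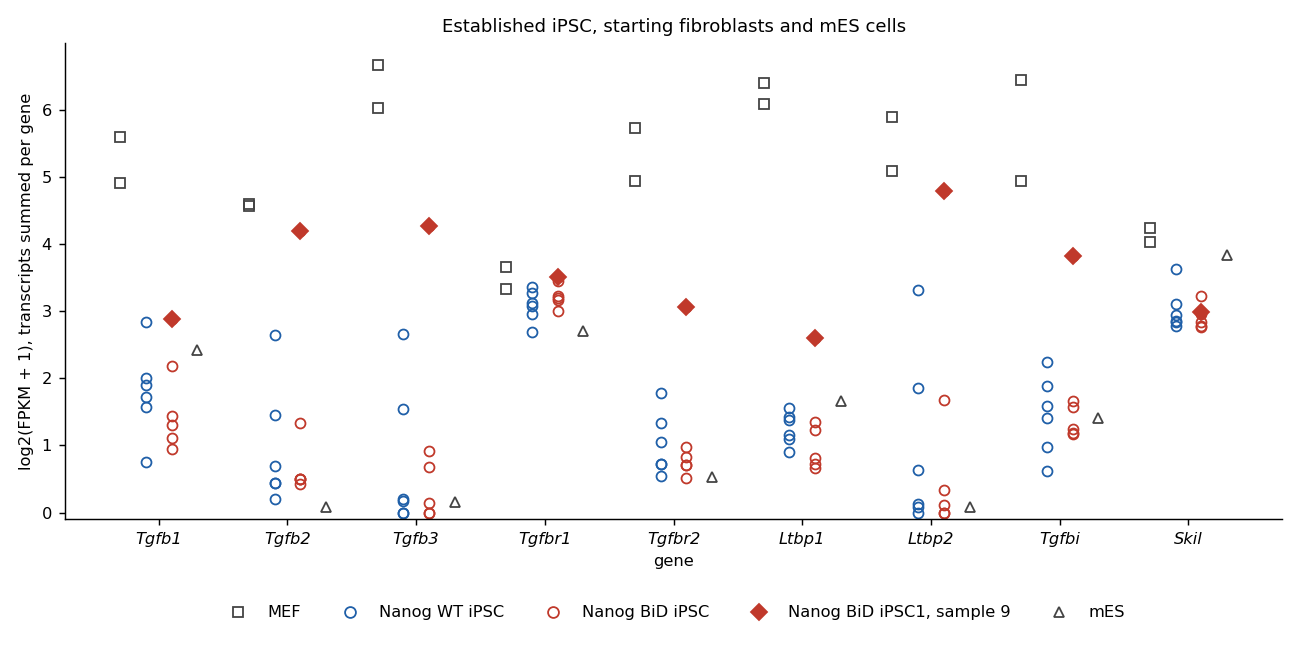
Log2(FPKM + 1) of the 9 genes, with transcripts summed per gene, in each MEF, Nanog WT iPSC, Nanog BiD iPSC and mES library; the filled diamond is sample 9 of Nanog BiD iPSC1. Tgfbr1 and Skil are at 5.42 FPKM or more in every iPSC sample, and the diamond is the highest iPSC value for all members but Skil.

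The iPSC made with the fusion and those made with native Nanog were then compared, with iPSC1 or iPSC2 as covariate. None of the 9 members was called by limma, nor was any of the 12456 genes tested (background 0%), although 201 genes had an unadjusted p under 0.05. No member was among those 201, and all adjusted p-values were 0.999. Differences ranged from -0.07 for Skil (SE 0.14) to 0.48 for Tgfb3 (SE 0.61). Without sample 9, 8 of the 9 estimates were negative, from -0.06 for Skil (SE 0.16) to -0.31 for Tgfb1 (SE 0.33), and that of Tgfbr1 was 0.14 (SE 0.14), with 0 genes called and 209 at an unadjusted p under 0.05. The largest standard error among the members was 0.69, that of Ltbp2 with all samples.

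The transcript table also resolved the forms of Ltbp1. The gene has a long form, which starts at chr17:75005568, and a short form, which starts at chr17:75178810 and has a shorter N-terminal part. The long form was at 32.8 and 29.7 FPKM in MEF and the short form at 22.6 and 34.2 FPKM, so neither was the higher one in both libraries. In iPSC the long form was at 0.00332, 0.949 and 1.95 FPKM, the lowest, median and highest. The short form was listed at 0 in 10 of the 12 iPSC samples and in mES, at 0.0225 FPKM in sample 4 of Nanog BiD iPSC1 and at 0.621 FPKM in sample 9. Other Ltbp1 transcripts without a placed start made up the rest, 11.8 and 19.7 FPKM in MEF and 1.86 of 2.15 FPKM in mES. They were 1.33 of 1.54 FPKM in sample 8 and 3.39 of 5.08 FPKM in sample 9 of Nanog BiD iPSC1. In sample 6 of Nanog WT iPSC2 they were 1.145 of 1.148 FPKM, and in the other iPSC samples the long form held most. The split between forms rests on the authors' estimates from shared reads.

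**Figure D5:**
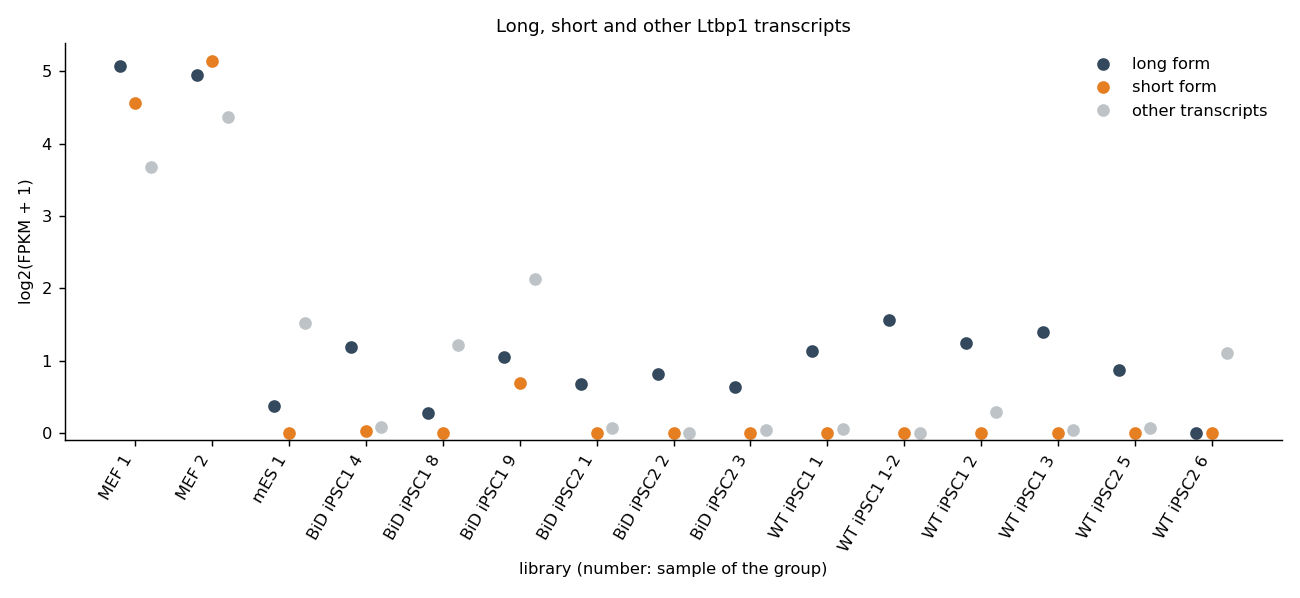
Log2(FPKM + 1) of the long form, the short form and all other transcripts of Ltbp1 in each library of the transcript table. Both forms are high in MEF (22.6 to 34.2 FPKM), and among iPSC samples the short form is highest in sample 9 of Nanog BiD iPSC1, at 0.621 FPKM.

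The windows upstream of the RefSeq starts of both forms are shown because the short form was listed at 0 in 10 of the 12 iPSC samples. Both forms were low in iPSC, and whether they differ there was not tested. They stop short of the starts given above, which are from GENCODE. They are 250 bases from RefSeq on GRCm38.p6, read 5′ to 3′, with CAGAC or GTCTG in capitals.
Ltbp1 long form (chr17:75005279-75005528, plus strand): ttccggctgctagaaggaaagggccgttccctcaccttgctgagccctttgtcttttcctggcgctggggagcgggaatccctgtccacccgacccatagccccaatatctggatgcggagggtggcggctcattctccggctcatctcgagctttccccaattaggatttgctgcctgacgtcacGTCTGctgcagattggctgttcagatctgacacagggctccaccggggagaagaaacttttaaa
Ltbp1 short form (chr17:75178531-75178780, plus strand): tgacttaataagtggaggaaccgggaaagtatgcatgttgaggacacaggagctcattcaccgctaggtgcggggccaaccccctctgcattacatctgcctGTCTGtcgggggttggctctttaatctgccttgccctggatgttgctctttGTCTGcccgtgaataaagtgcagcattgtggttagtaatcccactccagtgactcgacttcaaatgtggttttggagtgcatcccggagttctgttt
The long form's window held 1 match and the short form's 2. Of the 9 members 7 have a promoter in the RefSeq table, with 9 windows in all, and 7 of the 9 windows held a match. Over all 32817 mouse promoters 42.2% held one, and whether the members differ from that share was not tested.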

How the data were processed

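RNA-seq was measured in 46 samples. Per the submitters' processing notes and the study's methods, the authors trimmed reads with Trim Galore 0.6.4, aligned them to mm10 with HISAT2 2.2.1 and quantified with StringTie 2.2.1. The authors deposited FPKM per gene (34 libraries) and FPKM per transcript (15 libraries), with replicates kept apart; the annotation and the use of strand are not given in the sources used here. FPKM are not counts, so no count model was used. Only ratios of depth are known, from the steps of low values, and the depth of the iPSC libraries is unknown.

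The test on log2(FPKM + 1) was that of limma 3.58.1 in R 4.3.3, with an intensity trend in the variance prior, after dropping genes that did not reach 1 FPKM in 2 or more samples. The time-course model had 16 group means over 31 samples, D8 included without a contrast; the iPSC model had iPSC1 or iPSC2 as covariate. Each model was tested on simulated data. The alternatives were a pseudocount of 0.1, no filter, rescaling to TPM, quantile normalization, a replicate block, the compared groups alone and leaving out each library, with samples 1 and 1-2 of Nanog WT iPSC1 also averaged. Other pathway genes were named if among the 2 largest called differences of their list, or where a list had 5 or fewer calls. The members, the lists and these rules were chosen with earlier results of these data known. Promoters came from RefSeq (GRCm38.p6) and gene positions from GENCODE M21, on the same assembly as mm10. Python 3.11.15 was used for tables and figures. The likeness of Tgfbr1 to other genes is not reported here.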

Additional observations from a re-analysis of the deposited data

Results flagged for a closer look

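In the iPSC, the gap between the highest sample and the next was large against the range of the 6 Nanog BiD samples for 6 genes, all at sample 9 of Nanog BiD iPSC1. On the log2(FPKM + 1) scale the gap took 0.759 of the range for Tgfb2, 0.784 for Tgfb3, 0.821 for Tgfbr2, 0.650 for Ltbp1, 0.650 for Ltbp2 and 0.816 for Tgfbi, where 0.625 is Dixon's 95% critical value for 6 samples. The other 3 members did not pass it there, and 0 of 9 did among the 6 Nanog WT samples. Chance flags about 1 in 20 groups, and the 6 genes share 1 library, so they are not 6 separate events.

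The changes of 3 members from D0 to D7 differed between the combinations by limma's test of the difference itself, at -1.36 for Tgfb2, -1.32 for Tgfbr2 and -1.30 for Ltbp2. From D7 to D12 the same was true of 3 members, at -1.45 for Tgfb3 (SE 0.44, adjusted p = 0.0205, lost under 5 alternatives, down to -0.97), -2.30 for Tgfbr2 and -1.68 for Tgfbi. Tgfbr2 is the gene with a difference in both stages. The later stage rests on the deeper Nanog WT libraries of D12.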

How the results depend on the processing

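Of the 52 called differences of members, 39 were called under every alternative run and 0 reversed; the other 13 kept their direction and lost the call in at least 1. Among counts of members called, the fit to the compared groups alone gave 0 at D3 in place of 2. Leaving out each library in turn gave 0 to 3 members at D3, 2 to 4 at D5 and D7, 7 at D10, 5 to 7 at D12, 5 to 6 from D0 to D7 with Nanog BiD and 4 to 7 with Nanog WT, 3 from D7 to D12 with Nanog BiD and 1 to 3 with Nanog WT, 3 and 2 to 3 for the differences between combinations, 8 for iPSC against MEF, and 0 at D0, D1 and between the iPSC. Replicate numbers are shared by the combinations, but same-numbered samples did not deviate together throughout (correlations of -0.065 to 0.39), so the numbers were not taken as pairs; with the replicate block the counts were the same, for example 7 at D10, and the SE of Tgfb1 was 0.25 in place of 0.35. Quantile normalization moved the median of all genes by -0.25 (Nanog BiD) and -0.17 (Nanog WT) from D0 to D7 and by -0.11 between the combinations at D12. TPM moved it by 0.15 from D0 to D7 with Nanog WT and by -0.19 for iPSC against MEF. No called member turned under either, but the call of Ltbp2 from D7 to D12 with Nanog WT was lost under quantile normalization. All Nanog WT libraries from D8 on are deeper, which limits the late comparisons, and 2 replicates a group limit all of the time course.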
